A study of Homo sapiens with 4 samples.

Results

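The 10 genes described here were ATM, ATR, CHEK1, CHEK2, WEE1, CDC25A, CDC25B, CDC25C, H2AFX and TP53BP1. They encode the DNA damage checkpoint kinases, the CDC25 phosphatases and 2 proteins that mark broken chromatin, and they were picked by gene symbol from the 31319 genes of each table. RNA was sequenced from T24 and UM-UC-3, which are established human bladder cancer cell lines. Cells received OICR-9429 at 140 µM or its solvent DMSO for 48 h. OICR-9429 is a small molecule that occupies WDR5, a scaffold protein of the MLL complexes that methylate histone H3 at gene promoters. The groups were T24 with OICR-9429, T24 with DMSO, UM-UC-3 with OICR-9429 and UM-UC-3 with DMSO, with 1 library in each of these 4 groups. T24 was grown in RPMI-1640 and UM-UC-3 in DMEM, so the line and its medium cannot be told apart, and each line stands for a single tumour. The headings of the treated libraries' tables carry the number 125, whose meaning is not given in the sources used here.

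ATM and ATR sit at the top of the checkpoint. ATM answers mainly to double-strand breaks and acts through CHEK2, whereas ATR answers to single-stranded DNA at stalled replication forks and acts through CHEK1. Both effector kinases restrain the CDC25 phosphatases, which remove the inhibitory phosphates that WEE1 and its relative PKMYT1 place on cyclin-dependent kinases, so the balance of WEE1 and CDC25 sets entry into S phase and mitosis. H2AFX encodes H2AX, the histone variant that ATM and ATR phosphorylate beside a break, and TP53BP1 encodes 53BP1, which gathers there and favours end joining. Much of this control acts on the proteins through phosphorylation and degradation, which RNA levels do not record.

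Values are FPKM, the fragments of a gene scaled to its length and to the reads counted in its library, so they can be set side by side between genes of different length. The reads counted per library, worked back from the FPKM as the total they are scaled to, lay between 28209432 and 29335051. This total is not the sequencing depth. Between 11387 and 12115 genes per library stood at 1 FPKM or more. Of 12 epithelial and urothelial markers found in the tables, KRT8 and KRT18 carried most of the signal, and the list summed to 105 FPKM with OICR-9429 and 170 FPKM with DMSO in T24, and in UM-UC-3 it summed to 36.7 FPKM with OICR-9429 and 109 FPKM with DMSO. PPARG, a nuclear receptor of urothelial differentiation, went the other way, with 6.93 FPKM with OICR-9429 and 3.12 FPKM with DMSO in T24, and 5.86 FPKM with OICR-9429 and 1.55 FPKM with DMSO in UM-UC-3. The uroplakins found in the tables, which define differentiated urothelium, stayed at 0.81 FPKM or below, and KRT5, KRT19, CDH1 and GATA3 were likewise under 1 FPKM in all 4 libraries. None of 9 markers of blood, endothelial, muscle and stromal cells reached 1 FPKM in any library, and their sums lay between 0.487 and 1.01 FPKM. Expression of 12 proliferation markers, among them PCNA, TPX2, RRM2 and MKI67, moved with the treatment. Their summed level was 102 FPKM with OICR-9429 and 891 FPKM with DMSO in T24, and 136 FPKM with OICR-9429 and 1219 FPKM with DMSO in UM-UC-3, and each of the 12 was at least 2-fold lower in both lines. The part of this shift in the changes described next was not tested, and in bulk RNA fewer cells of a type or cycle stage and less RNA per cell cannot be told apart.

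Most of the 10 genes were lower with OICR-9429 and ATM alone was at least 2-fold higher in a line. In T24, 6 of the 10 were at least 2-fold lower in FPKM + 0.5 and 0 were at least 2-fold higher, where 13.5% of the 12638 genes with 1 FPKM or more in either library were lower and 6.93% were higher. In UM-UC-3, 7 were lower and 1, ATM, was higher, where 12.1% of 13086 genes were lower and 14.0% were higher. CHEK1, CHEK2, WEE1, CDC25A, CDC25C and H2AFX were lower in both lines, a count of 6 of 10 beside 6.32% of the 11178 genes measured in both, and 0 were higher in both, beside 2.67%. In T24 the median log2 fold change of the 10 was -1.27, against -0.15 for all genes. UM-UC-3 gave -1.74, against 0.09 for all genes. With 1 library per group these calls rest on size alone and have no test.

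The lines gave the only replication of the treatment. limma, fitted to log2(FPKM + 0.5) over all 4 libraries with the line as a block, asked whether the mean change differed from 0. Its error was the disagreement between the lines, pulled toward the spread of all genes tested at similar levels. Each SE given with limma is of this kind and is not the spread between the lines alone. For CDC25C the lines differed by 0.15 on the log2 scale, and the SE was 0.34. At a Benjamini-Hochberg adjusted p under 0.05, limma passed 5 of the 10 as lower, CHEK1, CHEK2, CDC25A, CDC25C and H2AFX, and 0 as higher. The shares of the 12584 genes tested were 3.11% and 0.811%. For 8 of the 10 the unadjusted p was under 0.05, beside 2840 of the 12584 genes tested. Without the FPKM minimum it passed 0 of the 10 (8 at an unadjusted p under 0.05), and without the block 0 (5 at an unadjusted p under 0.05). Over all genes, 2932 of 31319 and 1062 of 12584 had an unadjusted p under 0.05 in those fits. The fit had 1 residual degree of freedom per gene, and its p-values speak of these lines as sampled once each.

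**Figure D1:**
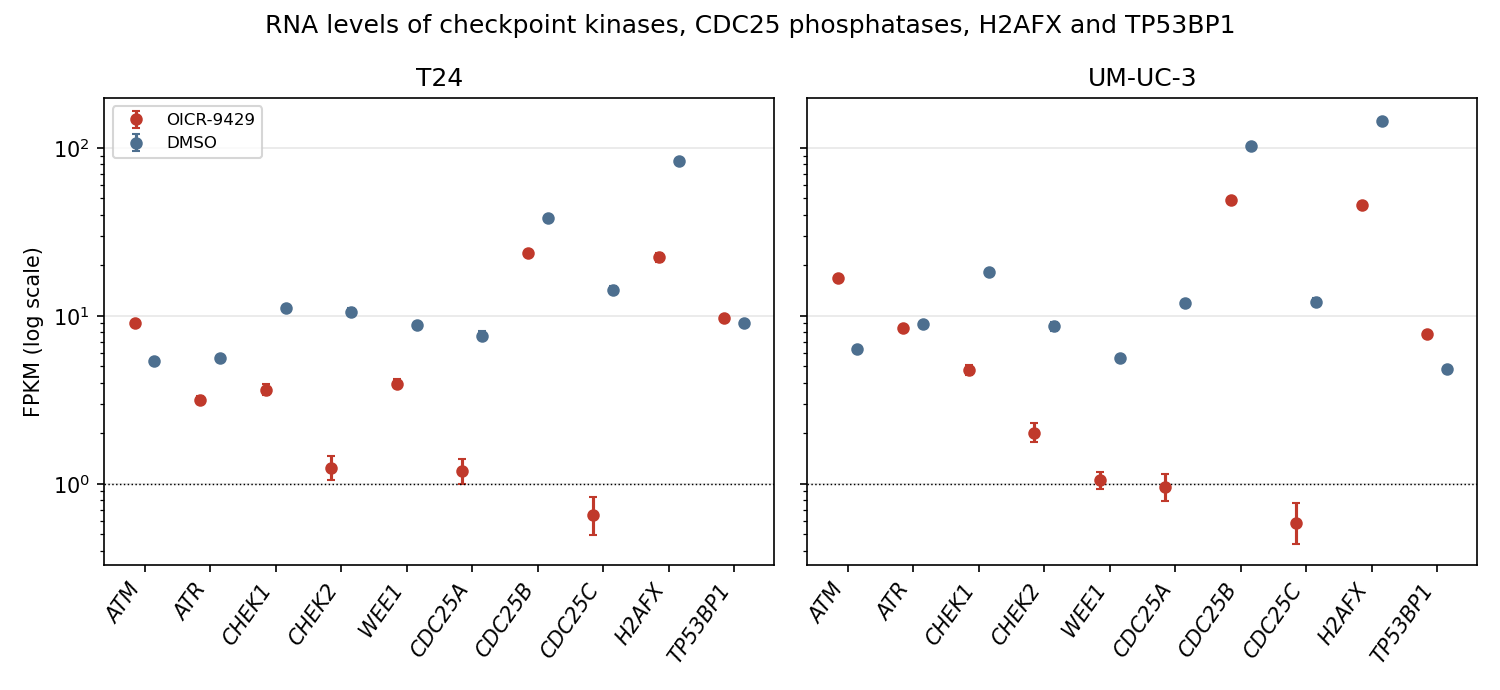
FPKM (log axis) of each gene in the OICR-9429 library and the DMSO library of T24 (left) and UM-UC-3 (right). Bars are 95% exact Poisson intervals for counting error and the dotted line marks 1 FPKM. CDC25C falls below that line in both OICR-9429 libraries (0.649 and 0.585 FPKM), while ATM is the gene with the largest excess over DMSO.

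The apical kinases went different ways. ATM RNA stood at 9.08 FPKM with OICR-9429 and 5.35 FPKM with DMSO in T24, and at 16.7 FPKM with OICR-9429 and 6.30 FPKM with DMSO in UM-UC-3. Both treated libraries were above both DMSO libraries. The FPKM ratio of OICR-9429 to DMSO was 1.70 in T24 (95% exact conditional interval 1.63 to 1.77), and UM-UC-3 gave 2.65 (2.55 to 2.75), intervals that here and later cover counting error only. On the log2(FPKM + 0.5) scale the changes were 0.71 and 1.34, so ATM met the 2-fold rule in UM-UC-3 alone, and limma gave a mean of 1.02 ± 0.31 (SE) with an adjusted p of 0.139. NPAT, a coactivator of histone genes that lies next to ATM and is transcribed from the same control region in the opposite direction, had 4.28 FPKM with OICR-9429 and 5.55 FPKM with DMSO in T24, and in UM-UC-3 it had 6.98 FPKM with OICR-9429 and 6.05 FPKM with DMSO. Neither line's NPAT change reached 2-fold.

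ATR RNA was 3.15 FPKM with OICR-9429 and 5.57 FPKM with DMSO in T24, and 8.49 FPKM with OICR-9429 and 8.91 FPKM with DMSO in UM-UC-3. The T24 libraries were thus apart and the UM-UC-3 libraries nearly level. The ratio was 0.565 in T24 (0.525 to 0.608), and UM-UC-3 gave 0.953 (0.906 to 1.00), with log2 changes of -0.74 and -0.07, both short of 2-fold. The mean change in limma was -0.40 ± 0.33 (SE) with an adjusted p of 0.521. Since each line had 1 library per condition, whether the lines differed in their ATR response was not tested.

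The effector kinases were lower in both lines. CHEK1, which carries the ATR signal, had 3.64 FPKM with OICR-9429 and 11.1 FPKM with DMSO in T24, and 4.75 FPKM with OICR-9429 and 18.2 FPKM with DMSO in UM-UC-3. Treated and DMSO libraries did not overlap. The CHEK1 ratio was 0.328 in T24 (0.301 to 0.358), and UM-UC-3 gave 0.261 (0.242 to 0.281). limma gave a mean log2 change of -1.66 ± 0.30 (SE), with an adjusted p of 0.0448, which was 0.0585 without a trend in the variance (range over the alternatives 0.0144 to 0.431).

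CHEK2, the main target of ATM, had 1.24 FPKM with OICR-9429 and 10.6 FPKM with DMSO in T24, and 2.02 FPKM with OICR-9429 and 8.66 FPKM with DMSO in UM-UC-3. The treated levels were near the 1 FPKM minimum, at the 5.2 percentile of measured genes in T24 and the 16.9 percentile in UM-UC-3, against 62.2 and 57.0 with DMSO. The ratio was 0.118 in T24 (0.0987 to 0.139), and UM-UC-3 gave 0.233 (0.202 to 0.268). The mean change in limma was -2.26 ± 0.37 (SE), with an adjusted p of 0.0345. CHEK2 shares long stretches with several pseudogenes, and how reads were divided among them is not given in the sources used here, so its level is less certain than that of CHEK1.

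WEE1, the kinase that holds CDK1 and CDK2 inactive, had 3.95 FPKM with OICR-9429 and 8.76 FPKM with DMSO in T24, and 1.05 FPKM with OICR-9429 and 5.58 FPKM with DMSO in UM-UC-3. All treated values were below all DMSO values. The ratio was 0.451 in T24 (0.419 to 0.485), and UM-UC-3 gave 0.188 (0.165 to 0.214). In T24 the change of -1.06 on the log2(FPKM + 0.5) scale lay just past the 2-fold line and did not meet it with a pseudocount of 1 or with rescaled libraries. limma gave -1.51 ± 0.38 (SE) with an adjusted p of 0.0977.

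The CDC25 phosphatases were unequal in size of change. CDC25A, which opens both the G1/S and the G2/M transition, had 1.18 FPKM with OICR-9429 and 7.63 FPKM with DMSO in T24, and 0.957 FPKM with OICR-9429 and 11.8 FPKM with DMSO in UM-UC-3. The ratio was 0.155 in T24 (0.129 to 0.185), and UM-UC-3 gave 0.0808 (0.0662 to 0.0978), and limma gave -2.68 ± 0.37 (SE) with an adjusted p of 0.0237. CDC25C, which acts on CDK1 at mitotic entry, showed the largest drop of the 10 genes. It had 0.649 FPKM with OICR-9429 and 14.3 FPKM with DMSO in T24, from 58 and 1258 reads. In UM-UC-3 it had 0.585 FPKM with OICR-9429 and 12.1 FPKM with DMSO, from 52 and 1039 reads. The CDC25C ratio was thus 0.0454 (0.0342 to 0.0590) and 0.0484 (0.0359 to 0.0639) in T24 and UM-UC-3, nearly the same in both lines, and limma gave -3.61 ± 0.34 (SE) with an adjusted p of 0.0073.

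CDC25B, which starts CDK1 activation at the centrosome, was the most abundant phosphatase of the family and changed least. It had 23.8 FPKM with OICR-9429 and 38.1 FPKM with DMSO in T24, and 48.8 FPKM with OICR-9429 and 102 FPKM with DMSO in UM-UC-3. The lines overlapped across conditions, since treated UM-UC-3 was above T24 with DMSO. The ratio was 0.625 in T24 (0.597 to 0.655), and UM-UC-3 gave 0.477 (0.463 to 0.492), and CDC25B met the 2-fold rule in UM-UC-3 alone. In limma the mean was -0.86 ± 0.23 (SE), with an adjusted p of 0.114.

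Among the chromatin proteins, H2AFX was lower and TP53BP1 was not. H2AFX had 22.3 FPKM with OICR-9429 and 83.2 FPKM with DMSO in T24, and 45.6 FPKM with OICR-9429 and 144 FPKM with DMSO in UM-UC-3. The ratio was 0.268 in T24 (0.250 to 0.287), and UM-UC-3 gave 0.316 (0.301 to 0.332), and limma gave -1.76 ± 0.22 (SE) with an adjusted p of 0.0165. The coding part of H2AFX resembles that of other H2A genes, so some of its reads may have been assigned with less certainty. TP53BP1 had 9.64 FPKM with OICR-9429 and 9.02 FPKM with DMSO in T24, and 7.83 FPKM with OICR-9429 and 4.80 FPKM with DMSO in UM-UC-3. Its ratio was 1.07 in T24 (1.02 to 1.12), and UM-UC-3 gave 1.63 (1.54 to 1.73), short of 2-fold in each, and limma gave 0.37 ± 0.31 (SE) with an adjusted p of 0.522.

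**Figure D2:**
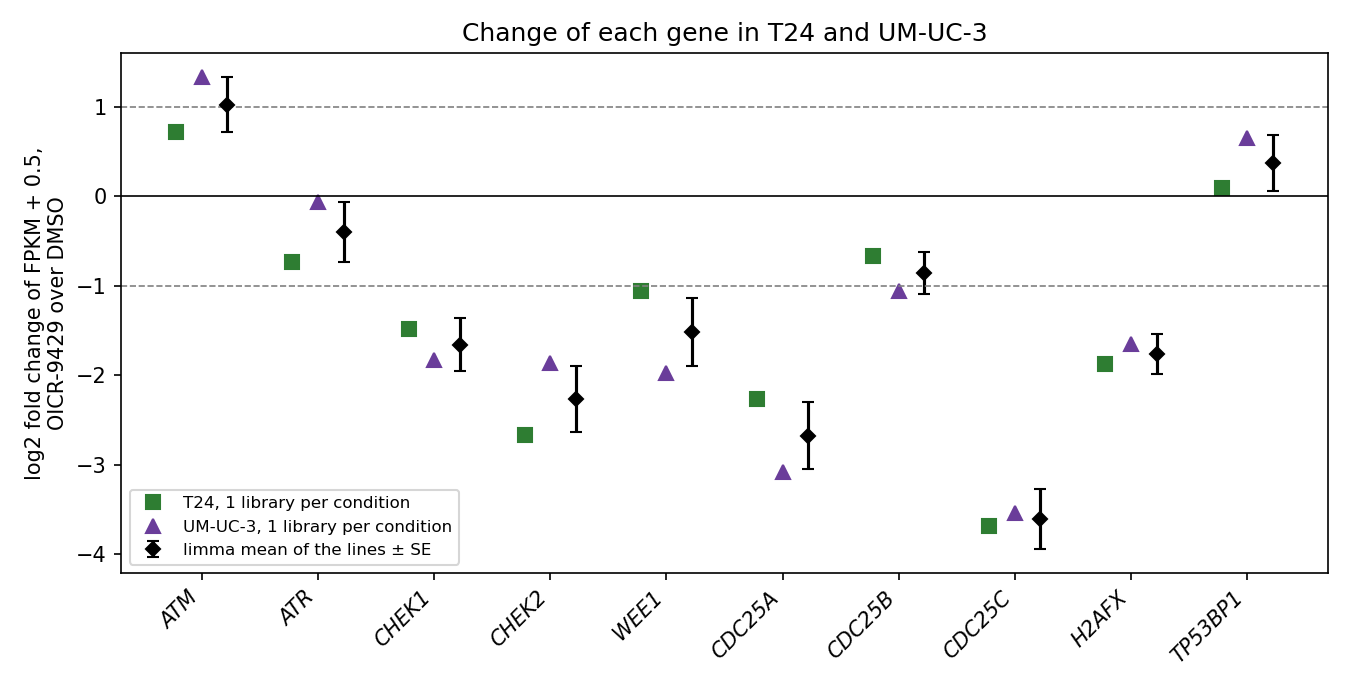
Log2 fold change of FPKM + 0.5, OICR-9429 over DMSO, of each gene in T24 and in UM-UC-3 (1 library per condition). The limma mean of the lines is shown with its standard error, which draws on the spread of all genes tested. Dashed lines mark 2-fold. CDC25C lies lowest in both lines (-3.69 and -3.54), and ATM and TP53BP1 are the genes above 0 in both.

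The order of the 10 genes by FPKM changed with treatment. With OICR-9429, CDC25B and H2AFX came first and CDC25C last in both lines. With DMSO, H2AFX and CDC25B came first, ATM was the lowest of the 10 in T24 and TP53BP1 the lowest in UM-UC-3. ATM moved to rank 4 in treated T24, against rank 10 with DMSO, and to rank 3 in treated UM-UC-3, against rank 8. CDC25C moved the other way, to rank 10 in both treated libraries, against rank 3 in T24 with DMSO and rank 4 in UM-UC-3 with DMSO.

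Ratios within a library do not depend on how libraries are scaled to each other. The ATM to ATR ratio was 2.88 with OICR-9429 and 0.959 with DMSO in T24, and 1.97 with OICR-9429 and 0.708 with DMSO in UM-UC-3. It was thus higher in the treated library of each line. In T24 with DMSO the levels of ATM and ATR were not apart, since their counting intervals overlapped (5.17 to 5.53 and 5.33 to 5.82 FPKM). Each effector kinase was lower relative to its upstream kinase. CHEK2 per ATM was 0.137 with OICR-9429 and 1.98 with DMSO in T24, and 0.121 with OICR-9429 and 1.37 with DMSO in UM-UC-3. CHEK1 per ATR was 1.16 with OICR-9429 and 1.99 with DMSO in T24, and 0.560 with OICR-9429 and 2.05 with DMSO in UM-UC-3.

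CDC25B held a larger share of the CDC25 family in the treated libraries. The summed CDC25 level was 25.6 FPKM with OICR-9429 and 60.0 FPKM with DMSO in T24, and 50.3 FPKM with OICR-9429 and 126 FPKM with DMSO in UM-UC-3. CDC25B made up 92.8% of this sum with OICR-9429 and 63.4% with DMSO in T24, and 96.9% with OICR-9429 and 81.0% with DMSO in UM-UC-3. The share of CDC25C was 2.53% with OICR-9429 and 23.8% with DMSO in T24, and 1.16% with OICR-9429 and 9.57% with DMSO in UM-UC-3. WEE1 per summed CDC25 was 0.154 with OICR-9429 and 0.146 with DMSO in T24, nearly level, and 0.0208 with OICR-9429 and 0.0442 with DMSO in UM-UC-3. That sum is mostly CDC25B. WEE1 per CDC25A was 3.34 with OICR-9429 and 1.15 with DMSO in T24, and 1.10 with OICR-9429 and 0.471 with DMSO in UM-UC-3, higher with OICR-9429 in each line. WEE1 per PKMYT1 was 5.89 with OICR-9429 and 0.706 with DMSO in T24, and 2.75 with OICR-9429 and 0.341 with DMSO in UM-UC-3, since PKMYT1 was lower by more than WEE1 in each line.

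**Figure D3:**
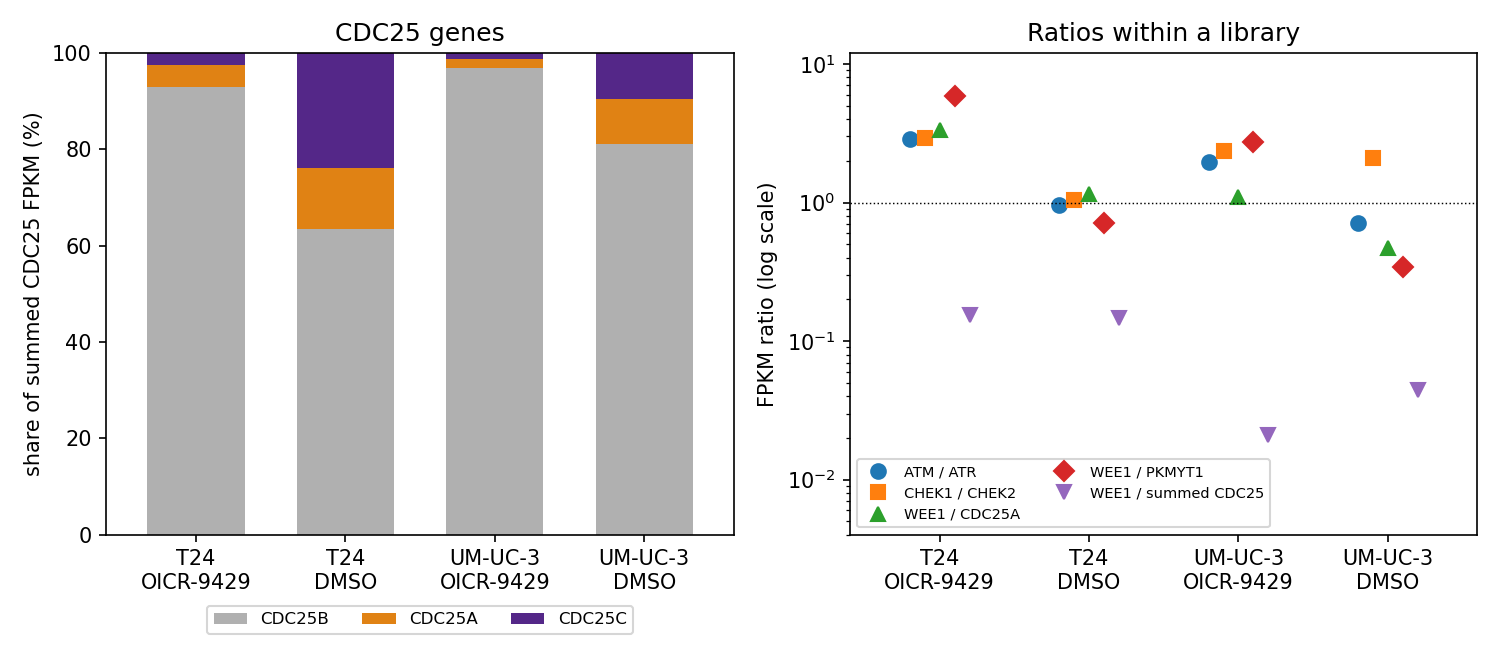
Left, share of CDC25A, CDC25B and CDC25C in their summed FPKM in each library. Right, FPKM ratios within each library on a log axis, the dotted line marking equal levels. CDC25B takes 92.8% and 96.9% of the sum in the OICR-9429 libraries, and the ATM to ATR ratio is higher in the OICR-9429 library of each line.

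The promoters of these genes were compared for short sequence elements known from cell cycle genes. RefSeq windows on GRCh38.p14, from 250 bases before to 50 after a transcription start, matched 9 of the 10 genes with 18 windows, and WEE1 had none. Motifs were searched on both strands, and none of the strings searched holds another. A CCAAT box (CCAAT), bound by NF-Y, was present in a window of 8 of the 9 genes, ATR being the exception, and in 39.7% of the 27305 genes with windows. A CHR element (TTTGAA or TTCGAA), bound by the DREAM and MuvB complexes, was present in 4 of the 9, ATM, CDC25B, CDC25C and H2AFX, and in 19.5% of all genes. An E2F site (TTTGGCGC, TTTCGCGC, TTTCCCGC or TTTGGCGG) was found in CDC25A alone, beside 4.1% of all genes. The NRF1 site and the E-box (CACGTG) were found in 0 of the 9, beside 1.5% and 8.8% of all genes. The 9 genes had more windows each than the background (18 windows, against 35116 for 27305 genes), so these shares per gene are not like for like. Per window, 13 of 18 held a CCAAT box, beside 34.6% of all windows, 5 of 18 a CHR element, beside 16.4%, and 1 of 18 an E2F site, beside 3.4%. Windows of one gene overlap in part. ATM, which was higher with OICR-9429, held both a CCAAT box and a CHR element, so neither element marked off the genes that were lower.

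The stretches below are shown because they carry these elements in genes whose RNA was lower, beside the one that was higher. Each reads 5′ to 3′ on the gene's strand, with CCAAT boxes, CHR elements and E2F sites in capitals. The first 3 are the 120 bases before a start of CDC25A (chr3:48188418-48188537, minus strand), CHEK1 (chr11:125626109-125626228, plus strand) and H2AFX (chr11:119095466-119095585, minus strand). The others are 30 bases around a CHR element of CDC25C (chr5:138331817-138331846, minus strand) and of ATM (chr11:108223035-108223064, plus strand), and around a CCAAT box of CHEK2 (chr22:28741843-28741872, minus strand).
CDC25A: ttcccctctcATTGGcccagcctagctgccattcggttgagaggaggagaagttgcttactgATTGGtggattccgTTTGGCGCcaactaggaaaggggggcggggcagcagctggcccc
CHEK1: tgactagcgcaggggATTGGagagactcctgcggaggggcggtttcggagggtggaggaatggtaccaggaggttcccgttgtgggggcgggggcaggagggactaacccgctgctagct
H2AFX: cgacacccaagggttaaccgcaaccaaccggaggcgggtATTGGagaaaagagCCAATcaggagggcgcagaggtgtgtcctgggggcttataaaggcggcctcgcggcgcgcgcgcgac
CDC25C: gctggcggaaggTTTGAAtggtcaacgcct
ATM: agtcacgcagggTTTGAAccggaagcggga
CHEK2: gagggggttttgATTGGctgagggtggagt

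ATTGG is CCAAT read on the other strand. CDC25A showed its CCAAT boxes upstream of the E2F site, and CDC25C and ATM shared the same 6 letters of the CHR element, TTTGAA, beginning 30 and 20 bases before the start used for each. These matches are letters in a window and do not show that a protein was bound there in these cells.

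A list of 15 genes around the CDK1 switch held its regulators, CDK1 itself, and CDK2 with its cyclins CCNE1 and CCNE2. Of these 15, T24 had 11 and UM-UC-3 10 that were at least 2-fold lower, the same 10 being lower in both, with 0 higher. The shares of all genes that were lower were 13.5% in T24, 12.1% for UM-UC-3 and 6.32% in both, and these stand beside the counts of each list that follows. limma passed 10 of the 15 as lower, beside 3.11% of all genes, and the 6 with the smallest adjusted p were CDK1, CCNA2, CCNB1, CCNB2, AURKA and PLK1. Log2 changes had a median of -2.65 for T24 and -2.72 for UM-UC-3. CDK1, the mitotic kinase that WEE1 and CDC25 act on, had 2.72 FPKM with OICR-9429 and 57.9 FPKM with DMSO in T24, and 1.65 FPKM with OICR-9429 and 36.5 FPKM with DMSO in UM-UC-3 (limma adjusted p = 0.00532). Its partner CCNB1 had 10.6 FPKM with OICR-9429 and 128 FPKM with DMSO in T24, and 3.52 FPKM with OICR-9429 and 76.2 FPKM with DMSO in UM-UC-3. CCNA2, the cyclin of S phase and G2, had 4.02 FPKM with OICR-9429 and 66.5 FPKM with DMSO in T24, and 2.05 FPKM with OICR-9429 and 49.9 FPKM with DMSO in UM-UC-3. All 3 genes were far lower in both treated libraries. PKMYT1, the kinase that shares this target with WEE1, had 0.670 FPKM with OICR-9429 and 12.4 FPKM with DMSO in T24, and 0.381 FPKM with OICR-9429 and 16.4 FPKM with DMSO in UM-UC-3 (limma adjusted p = 0.00762). ARPP19, a phosphatase inhibitor of the same switch, had log2 changes of -0.04 and 0.04.

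Of 13 measured genes of ATR activation and the replication checkpoint, T24 had 9 and UM-UC-3 6 that were lower, those 6 being lower in both, with 0 higher. The list also held ATRIP, whose matched entry stayed at 0.14 FPKM or below in all 4 libraries and was not counted. limma passed 4 of the 13, CLSPN, TIMELESS, RHNO1 and RPA1, all as lower. CLSPN, the adaptor that brings CHEK1 to ATR, had 0.832 FPKM with OICR-9429 and 14.2 FPKM with DMSO in T24, and 0.792 FPKM with OICR-9429 and 10.6 FPKM with DMSO in UM-UC-3 (limma adjusted p = 0.00871). TIMELESS, which holds the replication fork together, had log2 changes of -1.93 and -2.09, and RHNO1, a partner of the clamp that activates ATR, had -1.92 and -1.41. RPA1, the large subunit of the protein that coats single-stranded DNA, had 21.3 FPKM with OICR-9429 and 60.8 FPKM with DMSO in T24, and 14.5 FPKM with OICR-9429 and 34.9 FPKM with DMSO in UM-UC-3 (limma adjusted p = 0.0397). RPA2, its partner, was lower in T24 (-1.75) and short of 2-fold in UM-UC-3 (-0.62). Medians for the list were -1.23 for T24 and -0.72 for UM-UC-3.

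Of 16 genes of break sensing, 4 were lower in each line, 3 of them in both, and 0 were higher, with medians of -0.39 (T24) and -0.65 (UM-UC-3). limma passed 2, BRCA1 and its partner BARD1, which act in repair by homologous recombination. BARD1 had log2 changes of -2.48 and -2.05. BRCA1 had 1.11 FPKM with OICR-9429 and 11.7 FPKM with DMSO in T24, and 2.23 FPKM with OICR-9429 and 9.95 FPKM with DMSO in UM-UC-3 (limma adjusted p = 0.0325). PRKDC, the third kinase of the ATM family and the most abundant gene of the list, had log2 changes of -0.82 (T24) and -1.02 (UM-UC-3) (limma adjusted p = 0.0889). NBN, a subunit of the complex that brings ATM to breaks, had -0.30 and -0.88.

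The next lists act on the checkpoint proteins from outside. Their counts of 2-fold calls and of genes past limma lay near or below the shares of all genes and are no result about them. Of the genes for CDC25 and WEE1 turnover and the 14-3-3 proteins (YWHA genes), which hold phosphorylated CDC25 in check, T24 had 1 of 15 lower. UM-UC-3 had 2 of 14 lower and 2 higher. limma passed 0 in either direction, and 6 of the 15 had an unadjusted p under 0.05, beside 2840 of the 12584 genes tested. The most abundant 14-3-3 gene, YWHAE, had 152 FPKM with OICR-9429 and 294 FPKM with DMSO in T24, and 127 FPKM with OICR-9429 and 275 FPKM with DMSO in UM-UC-3 (limma adjusted p = 0.0754). YWHAQ had log2 changes of -0.90 and -1.36 (limma adjusted p = 0.0676). SFN had -1.54 in T24 and was below the FPKM minimum in UM-UC-3. Of 11 genes for phosphatases linked to the checkpoint and for their regulatory subunits, 1, PPP5C, was lower in T24 and 0 were called in UM-UC-3. limma passed 0 of the 11, and 3 had an unadjusted p under 0.05, beside the same share of all genes. PPP5C had log2 changes of -1.03 and -0.90, and PPP4R3B, a regulatory subunit of phosphatase 4, had 0.87 and 0.93. The most abundant, PPP1CA and PPP4C, had changes between -0.53 and -0.25.

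**Figure D4:**
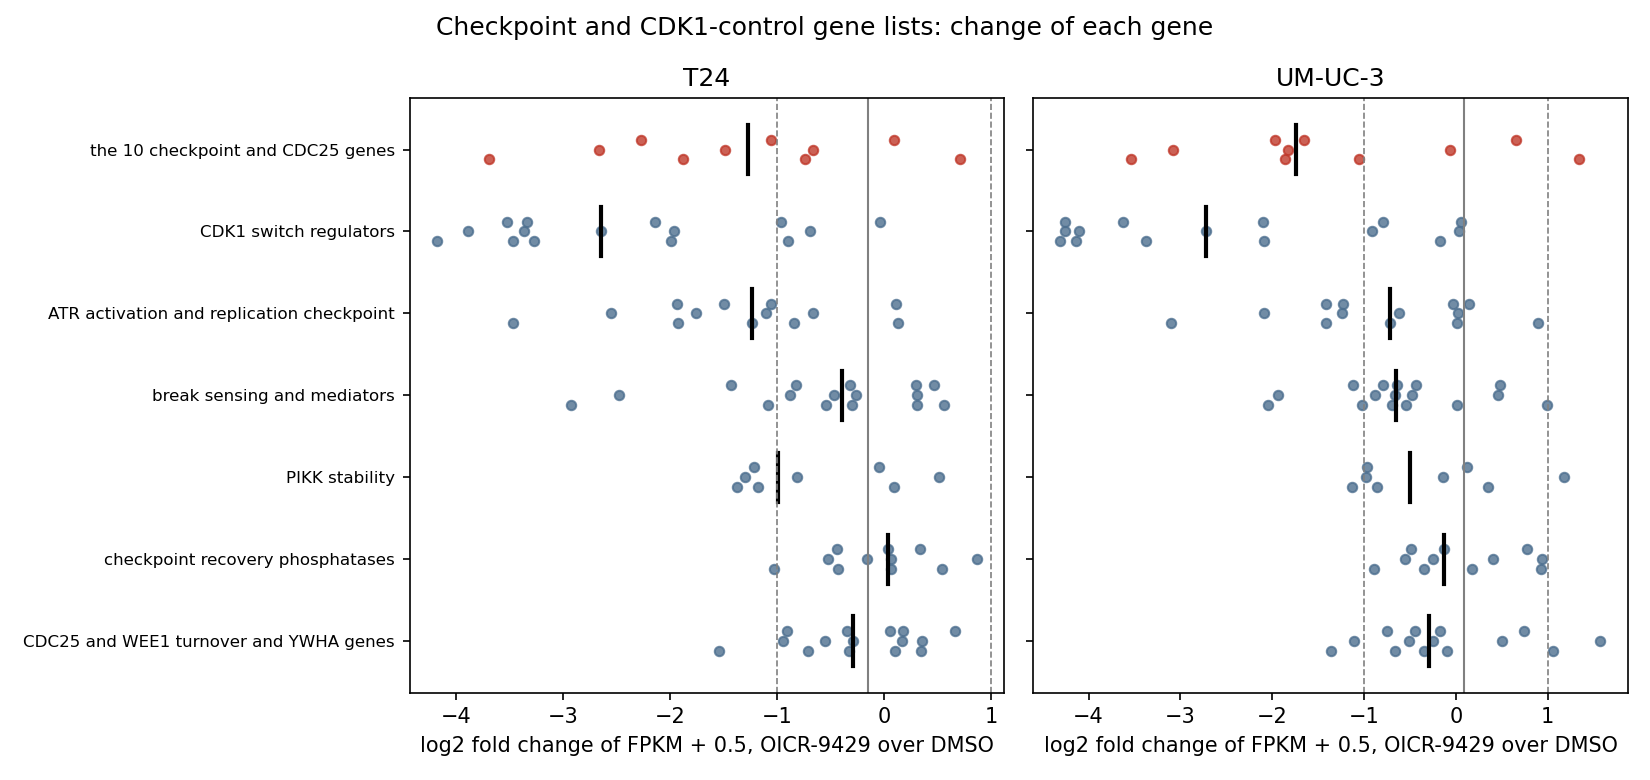
Log2 fold change of FPKM + 0.5, OICR-9429 over DMSO, of each measured gene of the 10 and of 6 lists around them, in T24 (left) and UM-UC-3 (right). Black bars are list medians, the grey line is the median of all genes and dashed lines mark 2-fold. The list labelled CDK1 switch regulators, which also holds CDK1, CDK2, CCNE1 and CCNE2, lies lowest (medians -2.65 and -2.72), below the 10 genes (-1.27 and -1.74).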

How the data were processed

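RNA-seq libraries of T24 and UM-UC-3 cells were compared within each line. Genome build hg19, counting by HTSeq 0.6.1, alignment by HISAT2 2.1.0 and base calling output by bcl2fastq 2.19.1 come from notes of the submitters. The deposited values are FPKM, which the authors made from read counts per gene. Strand use in counting is not given in the sources used here. FPKM is relative to each library's total, so a shift in a few abundant genes moves all others. Reads were worked back with GENCODE 29 gene lengths and came out whole in all 4 libraries for 92.7% of the genes (tolerance 1e-06). These lengths are on GRCh38, not the hg19 of the notes, and which annotation served for counting was not resolved. For 7 of the 10 genes this length was used, and for ATM, CHEK2 and CDC25C the length was solved from the 4 values. Those reads served only for intervals (95%, exact Poisson and exact conditional).

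Changes were computed as log2(FPKM + 0.5), which understates those of low genes. Genes needed 1 FPKM in 1 of a line's 2 libraries, and a call needed a 2-fold change. The study's own test on counts was not used, since the tables hold FPKM. limma 3.58.1 in R 4.3.3 (lmFit, eBayes with a trend) used genes at 1 FPKM in 2 or more libraries, with the line as a block because both libraries of a pair come from the same line, and Benjamini-Hochberg adjustment over all genes. It was also run on simulated data with the same changes in both lines and no difference between the lines. That run does not show how the fit treats disagreement between the lines. The libraries' true spread within a condition is unknown.

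The 10 genes and the lists around them, 145 gene names of which 139 matched, were chosen with earlier results of these data known. The text names the 10, their neighbours NPAT, PKMYT1, CDK1 and CCNB1, and from each list described the 2 most abundant genes, the 2 that changed most and up to 6 past limma. To say what lists held, it also names CDK2, CCNE1, CCNE2, ATRIP and all genes of the list for the stability of ATM-family kinases. For the marker lists some of these are left to the counts. Markers below 1 FPKM were named after their values were seen. Some genes and lists are not reported here. Alternatives were pseudocounts of 0.1 and 1, no FPKM minimum and one of 5, folds of 1.5 and 4, TMM and median-ratio scaling, no trend, and no block.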

Additional observations from a re-analysis of the deposited data

How the results depend on the processing

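All 20 member changes (10 genes in each line) kept their direction under the 4 alternatives that alter them, pseudocounts of 0.1 and 1, TMM scaling and median-ratio scaling. TMM moved the FPKM ratios of all genes by 0.12 on the log2 scale in T24, and by -0.10 in UM-UC-3. With TMM the ATM changes were 0.83 and 1.24. With a 4-fold rule, T24 had 3 of the 10 genes called and UM-UC-3 had 2, and 2 were called the same way in each, beside 4.32%, 5.63% and 2.33% of all genes. With a 1.5-fold rule the counts were 9, 9 and 8, beside 42.6%, 49.9% and 21.5% of all genes, so much of that rise is in the background too. limma called 0 of the 10 without an FPKM minimum (8 at an unadjusted p under 0.05) and 0 with no replicate block (5 at an unadjusted p under 0.05), against 5 with the minimum and the block, and the cause was not tested. Over all genes, those fits passed 0 as well, with 2932 of 31319 and 1062 of 12584 at an unadjusted p under 0.05. TMM added WEE1 (adjusted p = 0.0433, range over the alternatives 0.0433 to 0.628), and without a trend CHEK1 was not passed (0.0585, range 0.0144 to 0.431). Over all 12584 genes, 391 passed as lower in the main fit, 679 with TMM and 323 without a trend. Leaving out a library was not run, since it would leave a line with no pair. Reads limit the treated CDC25C level most, at 58 and 52 reads.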

Other observations

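Over the 4 libraries, the genes whose centred log2(FPKM + 0.5) pattern lay closest to that of ATM, of 12583 compared, were ZNF598, a ubiquitin ligase that senses collided ribosomes (distance 0.016), ARFGAP3 (0.056) and ISCU, a scaffold for iron-sulfur clusters (0.062). ZNF598 had 26.4 FPKM with OICR-9429 and 16.2 FPKM with DMSO in T24, and 48.3 FPKM with OICR-9429 and 18.8 FPKM with DMSO in UM-UC-3. The closest to CHEK1 were TOMM40L (0.093), KMT2E-AS1 (0.122) and AC005624.2 (0.137). TOMM40L had 0.923 FPKM with OICR-9429 and 3.30 FPKM with DMSO in T24, and 1.25 FPKM with OICR-9429 and 5.39 FPKM with DMSO in UM-UC-3. The distances are a description.

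A list for the stability of ATM-family kinases held 8 genes, the stability factors TELO2, TTI1, TTI2, RUVBL1 and RUVBL2 and the family members MTOR, SMG1 and TRRAP. T24 had 4 at least 2-fold lower, all 4 stability factors. UM-UC-3 had 1 lower and 1 higher, the latter the family member MTOR (log2 change 1.17). Log2 changes of the stability factors were negative in both lines, the smallest being -0.14 (TTI2 in UM-UC-3). limma passed 0 of the 8, and 4 had an unadjusted p under 0.05, beside 2840 of the 12584 genes tested. The shares of all genes that were lower were 13.5% in T24 and 12.1% for UM-UC-3. With TMM or median-ratio scaling, 3 of the 8 were lower in both lines, against 1, and 3 passed limma as lower. Over all genes, 693 (TMM) and 698 (median-ratio) of 11178 were then lower in both lines, against 707. Those passing limma as lower rose to 679 (TMM) and 610 (median-ratio) of 12584, against 391. TTI1, a subunit of the complex that helps fold ATM and ATR, was lower in both lines, with 8.84 FPKM with OICR-9429 and 21.2 FPKM with DMSO in T24, and 9.63 FPKM with OICR-9429 and 21.7 FPKM with DMSO in UM-UC-3 (limma adjusted p = 0.0678, before rescaling). RUVBL2, an ATPase that works with it, had 20.8 FPKM with OICR-9429 and 51.9 FPKM with DMSO in T24, and 41.6 FPKM with OICR-9429 and 82.6 FPKM with DMSO in UM-UC-3. RUVBL1, its partner, had log2 changes of -1.37 and -0.97, and TRRAP, a member of the kinase family without kinase activity, had 0.09 and 0.12.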
